A study of Mus musculus with 6 samples.

Results

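The expression of 6 genes was followed in B16F10 mouse melanoma cells depleted of OSGEP: Parp9, Parp10, Parp12 and Parp14, which encode PARPs induced by interferon, Dtx3l, which encodes the ubiquitin ligase partner of PARP9, and Zc3hav1, which encodes the zinc finger antiviral protein ZAP. They were chosen by gene symbol, with earlier results of these data known. Each symbol matched 1 of the 55487 genes in the table, and all 6 were among the 12669 genes expressed highly enough to be tested. OSGEP is the enzyme of the KEOPS complex that makes the t6A modification on tRNAs. B16F10 cells, labelled wild type in genotype, were infected with a control shRNA (shCtr, scrambled sequence, n = 3 libraries) or with 1 shRNA against OSGEP (shOSGEP, n = 3 libraries). Each library came from an infection of its own and was made from polyA RNA. A single hairpin in a single cell line was sequenced, so an effect of OSGEP loss and an effect of that hairpin cannot be told apart.

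PARPs transfer ADP-ribose from NAD to proteins or nucleic acids. Most interferon-induced members of the family add a single ADP-ribose unit and lack the long chains made by PARP1 in DNA repair. Type I interferon acts through its receptor, the JAK kinases and transcription factors that bind interferon-stimulated response elements in the promoters of its target genes. PARP9 and DTX3L form a complex that joins ADP-ribose biology to ubiquitin ligation, while ZAP has a PARP-like domain without catalytic activity, binds CpG-rich RNA and recruits RNA decay factors.

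A promoter window of RefSeq (GRCm38.p6), from 250 bases before to 50 bases after the gene start, was found for 3 of the 6 genes: Parp12, Dtx3l and Zc3hav1. They are shown because the 6 genes are known as interferon targets, so the letters bound by interferon factors are of interest there. Only the longest stretch before the start that lies outside every annotated exon is printed, in the direction of transcription. Capitals mark GAAA, the half-site of the interferon-stimulated response element, or TTTC, the same half-site on the other strand.
Parp12 (chr6:39118350-39118472, minus strand): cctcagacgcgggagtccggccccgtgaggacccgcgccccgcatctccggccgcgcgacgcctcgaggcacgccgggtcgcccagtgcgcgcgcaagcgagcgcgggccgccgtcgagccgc
Dtx3l (chr16:35939207-35939277, minus strand): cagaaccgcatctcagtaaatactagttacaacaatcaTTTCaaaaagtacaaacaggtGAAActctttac
Zc3hav1 (chr6:38354604-38354853, minus strand): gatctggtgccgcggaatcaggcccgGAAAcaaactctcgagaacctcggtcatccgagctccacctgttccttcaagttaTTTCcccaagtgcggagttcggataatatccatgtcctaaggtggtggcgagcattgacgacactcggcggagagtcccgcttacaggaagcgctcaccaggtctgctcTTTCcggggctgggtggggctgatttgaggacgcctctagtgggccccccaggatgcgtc
The printed stretch held 123 bases and 0 half-sites for Parp12, 71 bases and 2 half-sites for Dtx3l, and 250 bases and 3 half-sites for Zc3hav1. The Parp12 stretch was the most GC-rich, at 81.3%, against 33.8% for Dtx3l and 58.8% for Zc3hav1. In the whole 300-base windows, searched on both strands, the half-site was found 2 times for Parp12, 4 times for Dtx3l and 3 times for Zc3hav1, and 89.19% of all 32851 windows held at least 1. The core of the full element, a pair of GAAA half-sites on 1 strand with 2 bases of any kind between them, was found in 0 of the 3 windows and in 3.443% of all windows. The gamma-activated site TTCNNNGAA was also found in 0 of the 3 and in 8.298% of all windows. The Dtx3l stretch lies inside an intron of Parp9. The Dtx3l window (35938978 to 35939277) is set on a RefSeq start that lies inside the gene as annotated by GENCODE, which starts at 35939151. Fewer than 250 bases before that GENCODE start were thus searched. These matches describe the letters of these windows alone.

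Parp14, Dtx3l and Parp9 lie in 1 cluster on chromosome 16 (GRCm38, GENCODE M21). Parp14 (ENSMUSG00000034422) spans 35832874 to 35871544 on the minus strand. Dtx3l (ENSMUSG00000049502) spans 35926511 to 35939151 on the minus strand, and Parp9 (ENSMUSG00000022906) spans 35938470 to 35972605 on the plus strand. Parp9 and Dtx3l start head to head and their spans overlap by 682 bases. Their exons share 458 bases, which is 9.40% of the exon bases of Parp9 and 8.0% of those of Dtx3l. Since the library kit was not stated to keep the strand, reads from the shared exons cannot be assigned with certainty to one gene. Parp14 and Dtx3l were separated by 54966 bases.

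**Figure D1:**
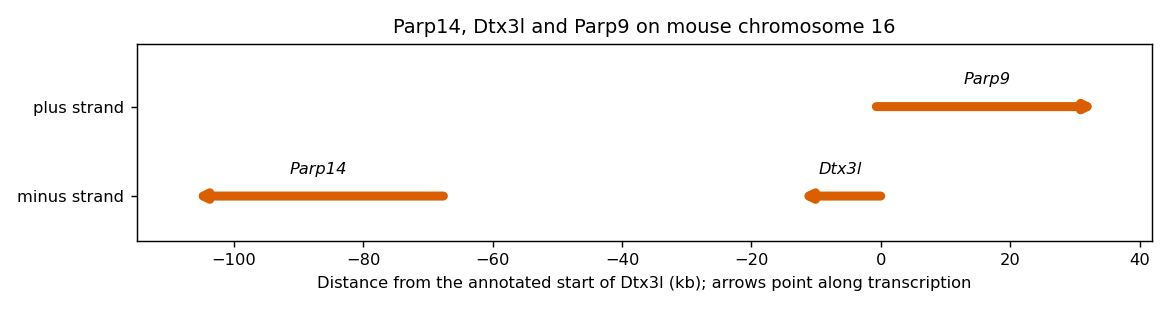
Positions of Parp14, Dtx3l and Parp9 on mouse chromosome 16, as distance in kb from the annotated start of Dtx3l, with 1 row per strand and arrows along the direction of transcription. Dtx3l and Parp9 overlap by 682 bases at their starts and run apart, and Parp14 lies 54966 bases beyond the end of Dtx3l.

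Parp12 (ENSMUSG00000038507, 39086410 to 39118349) and Zc3hav1 (ENSMUSG00000029826, 38305286 to 38354603) are both on the minus strand of chromosome 6, 731806 bases apart. Parp10 (ENSMUSG00000063268) spans 76231174 to 76243441 on chromosome 15 (minus strand), and 4.80% of its exon bases are shared with Plec on the same strand. All are protein-coding genes.

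The targeted gene was measured first. Osgep stood at 20.6, 58.6 and 21.8 CPM (counts relative to library size, TMM-scaled) in shCtr replicates 1 to 3, and at 4.28, 0.542 and 5.52 CPM in shOSGEP replicates 1 to 3. Every shOSGEP library was below every shCtr library, with a Log2FC of -3.29 (SE 0.876). In edgeR's quasi-likelihood test Osgep had an unadjusted p of 0.00524 and an adjusted p of 0.9997. At an adjusted p under 0.05 this test thus did not call the targeted gene either. Within replicate numbers 1 to 3 the log2 ratios of Osgep were -2.24, -6.54 and -1.97, so the replicate 2 pair differed most. Depth ranged from 18915587 to 29487384 counts. The replicate 2 libraries of both groups stood apart from the others: shCtr replicate 2 had a TMM factor of 0.690, against 1.04 to 1.14 in the other 5. Markers of the melanocyte lineage (Tyr, Tyrp1, Dct, Pmel, Mlana, Mitf and Sox10) were detected in every library, with summed counts from 91637 in shOSGEP replicate 2 to 602109 in shCtr replicate 2 and from 362688 to 416814 in the other 4. Of 10 markers of immune and stromal cells, 5 were at 0 in every library (Ptprc, Cd3e, Itgam, Adgre1 and Cdh5), and the summed counts of all 10 lay between 13 and 114, most of them from Pdgfra. Values without the replicate 2 libraries are therefore given for each of the 6 genes and for each list of related genes. In bulk RNA, fewer cells expressing a gene and less RNA per cell cannot be told apart.

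No single difference between shOSGEP and shCtr in the 6 genes passed the test across all genes, while all 6 fitted differences had the same sign. Log2FC was above 0 for 6 of 6 genes, with a median of 0.61 and a range from 0.27 (Zc3hav1) to 1.31 (Parp14), against a median of -0.03 over all genes tested and 47.3% of all genes above 0. The 6 genes were chosen with earlier results of these data known, and Parp14, Dtx3l and Parp9 lie in 1 cluster. Their shared sign is therefore a description and was not tested. At the threshold of the study (Log2FC beyond 0.5 with an unadjusted p under 0.05), 0 of 6 were higher and 0 of 6 lower, where 1.59% of all genes were higher and 0.426% lower. The quasi-likelihood test of edgeR called 0 of 6, and 0% of all genes, at an adjusted p under 0.05. Of all genes, 256 had an unadjusted p under 0.05, and 14 were called at an adjusted p under 0.05 by DESeq2, 3 by limma-voom weighted by sample quality and 1403 when a replicate block was added to the latter. For 1 gene, Parp14, every shOSGEP library was above every shCtr library (3.49% of all genes), and for 0 of 6 the order was the opposite (2.87% of all genes). For 3 genes (Parp9, Parp10 and Parp14) shOSGEP was higher in each of the 3 same-numbered comparisons, as for 17.6% of all genes.

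The size of the differences rested largely on the replicate 2 libraries. The median log2 ratio of the 6 genes between same-numbered libraries was 0.35 for replicate 1, 1.81 for replicate 2 and 0.12 for replicate 3. shOSGEP replicate 2 held the highest value for 5 genes, all but Zc3hav1, and shCtr replicate 2 the lowest value for 5 genes, all but Parp10. Without the replicate 2 libraries of both groups the median Log2FC was 0.21, and 5 of 6 genes remained above 0.

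**Figure D2:**
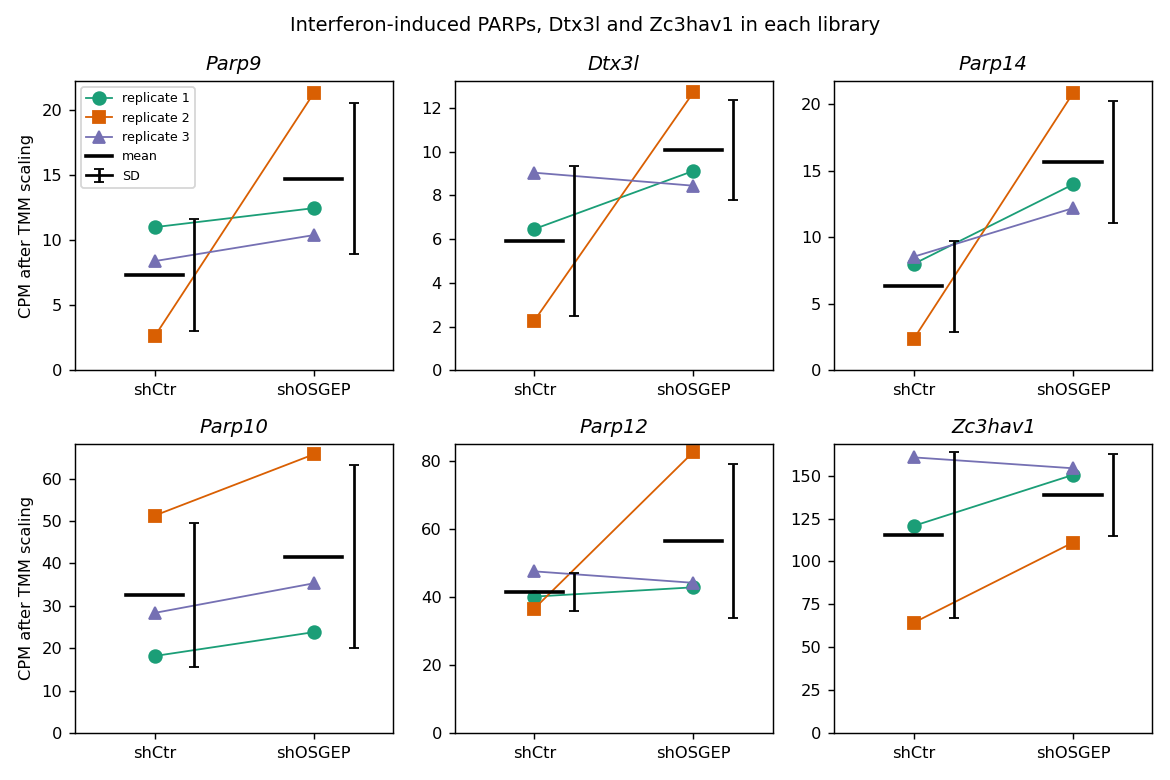
CPM after TMM scaling of the 6 genes in shCtr and shOSGEP (linear axes from 0); points are libraries, lines join libraries of the same replicate number, horizontal bars are means and vertical bars 1 SD (n = 3). Parp14 is the gene whose groups do not overlap, and the steepest line of each gene is that of replicate 2.

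The complex of PARP9 and DTX3L was considered first. Parp9 encodes a protein with macrodomains, which bind ADP-ribose. It was measured in shCtr replicates 1 to 3 at 11.0, 2.61 and 8.39 CPM, and in shOSGEP replicates 1 to 3 at 12.5, 21.3 and 10.4 CPM. shCtr replicate 2 was the lowest and shOSGEP replicate 2 the highest, while the groups overlapped, since shCtr replicate 1 lay above shOSGEP replicate 3. Mean CPM (± SD, n = 3) was 7.33 ± 4.30 in shCtr and 14.7 ± 5.80 in shOSGEP, for a Log2FC of 1.00 (SE 0.619, adjusted p = 1.00). In counts, shCtr replicate 2 had 53 reads for Parp9 and the other 5 libraries 182 to 550. The log2 ratios within replicate numbers were 0.18, 2.99 and 0.31, and without replicate 2 the Log2FC was 0.24 (SE 0.312).

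Dtx3l encodes an E3 ubiquitin ligase of the Deltex family. It was measured in shCtr at 6.46, 2.26 and 9.04 CPM, and in shOSGEP at 9.12, 12.7 and 8.44 CPM, in order of replicate number. Replicate 3 was the exception to the direction of the other pairs, with shCtr above shOSGEP, and the groups overlapped. Mean CPM (± SD, n = 3) was 5.92 ± 3.42 in shCtr and 10.1 ± 2.29 in shOSGEP, for a Log2FC of 0.77 (SE 0.587, adjusted p = 1.00). Without replicate 2 the Log2FC was 0.18 (SE 0.333). Because the genes share a start region, the ratio of their mRNAs was also compared. The log2 ratio of Parp9 to Dtx3l was 0.76, 0.20 and -0.11 in shCtr and 0.45, 0.74 and 0.30 in shOSGEP. The groups overlapped, and the means differed by 0.21 (exact permutation test, two-sided p = 0.5), so no shift of one gene relative to the other was detectable beyond the spread between libraries. Other Deltex genes showed no larger difference: Dtx2 had a Log2FC of -0.29 (SE 0.552) and Dtx3 of 0.16 (SE 0.383), and Dtx1 and Dtx4 were too low to be tested. Without replicate 2 both tested genes were above 0, with a median of 0.15.

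Among the transferases of single ADP-ribose units, Parp14 differed most. It encodes a very large protein with several macrodomains, known as a cofactor of STAT6. It was measured in shCtr at 7.99, 2.36 and 8.53 CPM, and in shOSGEP at 14.0, 20.8 and 12.2 CPM, in order of replicate number. All 3 shOSGEP libraries lay above all 3 shCtr libraries, and the difference held its sign within each replicate number, with log2 ratios of 0.80, 3.09 and 0.51. Mean CPM (± SD, n = 3) was 6.29 ± 3.42 in shCtr and 15.6 ± 4.56 in shOSGEP, a difference of 2.48-fold in the fit. The Log2FC was 1.31 (SE 0.589), with an unadjusted p of 0.0553 in edgeR's quasi-likelihood test and an adjusted p of 1.00. The exact permutation test of log2 CPM gave p = 0.1 (two-sided), which no arrangement of 3 against 3 libraries can go below. Without replicate 2 the Log2FC was 0.66 (SE 0.290, unadjusted p = 0.0636).

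The call for Parp14 depended on the tool, the scaling and the filter. It passed the threshold of the study in 7 of the 19 alternatives. Among these were DESeq2 (unadjusted p = 0.0351, adjusted p = 1.00), upper-quartile scaling (Log2FC 1.41, unadjusted p = 0.0494) and offsets for GC content and transcript length (Log2FC 1.39, SE 0.459, unadjusted p = 0.0174). Of all 12669 genes tested, 370, 287 and 622 passed it in these fits, in this order, against 256 in the main fit. With quality-weighted limma-voom plus a replicate block the Log2FC of Parp14 was 0.75, at an adjusted p of 0.00111. This was the only fit in which any of the 6 genes was called at an adjusted p under 0.05. It called 1403 of the 12669 genes tested, and 3 of the 11 PARP genes outside the interferon group. Over all 19 alternatives the adjusted p of Parp14 ranged from 0.00111 to 1.00 and its Log2FC from 0.66 to 1.75.

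Parp10 encodes a transferase with ubiquitin-binding motifs. It was measured in shCtr at 18.1, 51.3 and 28.3 CPM, and in shOSGEP at 23.8, 65.7 and 35.3 CPM, in order of replicate number. The spread between replicates was wide in both groups, replicate 2 was the highest in each, and the groups overlapped. Mean CPM (± SD, n = 3) was 32.6 ± 17.0 in shCtr and 41.6 ± 21.7 in shOSGEP, for a Log2FC of 0.35 (SE 0.560, adjusted p = 1.00). Within replicate numbers the log2 ratios were alike, at 0.39, 0.36 and 0.32. With a replicate block the Log2FC stayed at 0.36 while its SE fell to 0.266, and the unadjusted p was 0.234. Before any correction for GC content and transcript length, Parp10 was thus the gene of the 6 with the most even difference across same-numbered libraries. It did not pass the test. After removal of the trend on GC content and transcript length, its log2 ratios were 0.38, 1.21 and 0.17, so the replicate 2 pair differed most there. Without shOSGEP replicate 2 alone the Log2FC was -0.11, and without both replicate 2 libraries it was 0.35 (SE 0.362).

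Parp12 encodes a zinc finger PARP related in its domains to ZAP. It was measured in shCtr at 40.1, 36.5 and 47.5 CPM, and in shOSGEP at 42.8, 82.6 and 44.1 CPM. Only shOSGEP replicate 2 stood above the shCtr range, and the groups overlapped. Mean CPM (± SD, n = 3) was 41.4 ± 5.60 in shCtr and 56.5 ± 22.6 in shOSGEP, for a Log2FC of 0.45 (SE 0.431, adjusted p = 1.00). Without replicate 2 it was -0.01 (SE 0.262).

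Zc3hav1 had the highest level per transcript length of the 6. It was measured in shCtr at 120.8, 64.3 and 160.7 CPM, and in shOSGEP at 150.5, 111.0 and 154.3 CPM, in order of replicate number. The highest value belonged to shCtr replicate 3, and both replicate 2 libraries were the lowest of their groups. Mean CPM (± SD, n = 3) was 115 ± 48.4 in shCtr and 139 ± 24.0 in shOSGEP, for a Log2FC of 0.27 (SE 0.448, adjusted p = 1.00). Without shCtr replicate 2 alone the Log2FC was -0.024, and without both replicate 2 libraries it was 0.12 (SE 0.293). No difference in ZAP mRNA was therefore detectable against this spread.

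**Figure D3:**
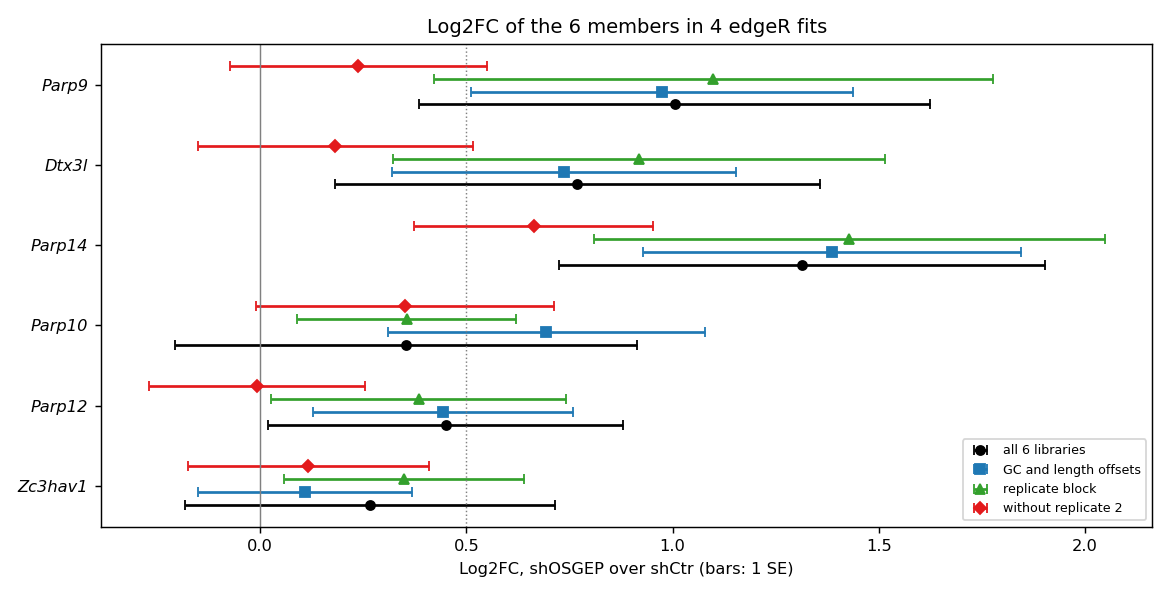
Log2FC of shOSGEP over shCtr for the 6 genes in 4 edgeR fits, with bars of 1 SE; the solid line marks 0 and the dotted line the 0.5 of the study threshold. Without the replicate 2 libraries Parp9 moves from 1.00 to 0.24, Parp14 from 1.31 to 0.66 and Parp12 from 0.45 to -0.01, while Parp10 stays at 0.35.

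To compare levels between the genes, CPM were divided by the length of the longest transcript (3231 to 7417 bases). Zc3hav1 was highest in shCtr, at 23.3 ± 9.80 CPM per kb (SD, n = 3), followed by Parp12 at 12.8 ± 1.73 and Parp10 at 9.56 ± 4.98 CPM per kb. Parp9 stood at 2.07 ± 1.21, Dtx3l at 1.11 ± 0.644 and Parp14 at 0.848 ± 0.461 CPM per kb. The libraries of neighbours in this order overlapped, except for Parp10 and Parp9: the lowest shCtr library of Parp10 (5.33 CPM per kb) was above the highest of Parp9 (3.10 CPM per kb). The 3 genes of the chromosome 16 cluster thus formed the lower level and the other 3 the upper one in shCtr. In shOSGEP the means were 28.0 CPM per kb for Zc3hav1, 17.5 for Parp12, 12.2 for Parp10, 4.15 for Parp9, 2.11 for Parp14 and 1.90 for Dtx3l. The upper and the lower 3 stayed apart, by a narrower gap. The lowest shOSGEP library of Parp10 stood at 6.98 CPM per kb and the highest of Parp9 at 6.01.

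The values of the 6 genes in the replicate 2 libraries were set beside the base composition of their transcripts. When a smooth curve was fitted over the genes tested on GC content and on transcript length, it accounted for 59.8% of the variance of the deviations of shCtr replicate 2 from the gene means, against 15.9% to 51.0% in the other 5 libraries. Transcripts of 5 genes had between 45.9% and 50.6% GC, and the Parp10 transcript had 57.9%. In shCtr replicate 2, Parp14 was 1.77 lower in log2 CPM than the mean of the other shCtr libraries, where the trend alone gave a deviation of -1.60. Zc3hav1 deviated by -1.11 with a trend of -1.17, Dtx3l by -1.72 with a trend of -1.37, and Parp10, the GC-rich transcript, by 1.17 with a trend of 0.90. Parp9 deviated by -1.85 with a trend of -0.53, and Parp12 by -0.26 with a trend of 0.21. Both thus lay below the trend, as Parp14 and Dtx3l did by less.

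In shOSGEP replicate 2 the trend was weaker and the genes departed from it. Relative to the other shOSGEP libraries, Parp9 deviated by 0.90, Parp10 by 1.18 and Parp12 by 0.92, with trends of -0.03, -0.03 and 0.13. Parp14 and Dtx3l deviated by 0.67 and 0.53 with trends of -0.78 and -0.48, opposite in sign. Zc3hav1 stayed with its trend, at -0.46 against -0.39. After removal of the trend from each library, the groups did not overlap for 2 genes, Parp9 and Parp14, and overlapped for the other 4. After the same correction, 6.15% of all genes were higher in every shOSGEP library. The trend-corrected differences in log2 CPM were 1.02 for Parp9, 0.68 for Dtx3l, 1.20 for Parp14, 0.58 for Parp10, 0.41 for Parp12 and 0.12 for Zc3hav1. In the same library pair, the summed melanocyte marker counts, in which Pmel was the largest term in shCtr replicate 2, were lowest (shOSGEP replicate 2) and highest (shCtr replicate 2). Mitf did not follow the sum: its shCtr replicate 2 value was 29.3 CPM and its shOSGEP replicate 2 value 30.6 CPM, against 202 to 339 CPM in the other 4 libraries. The part of composition and of these markers in the differences was not tested.

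**Figure D4:**
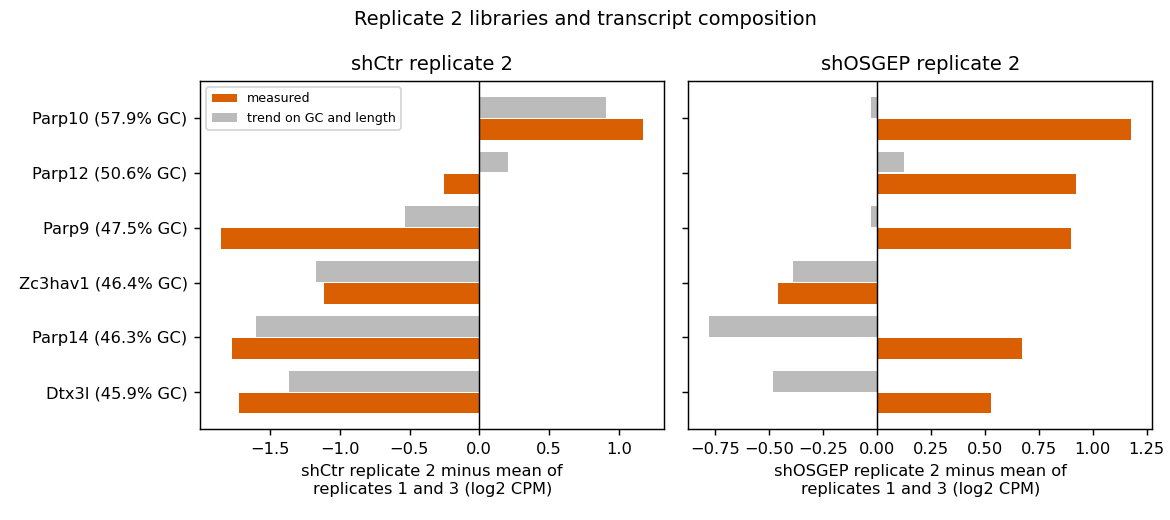
Deviation of the replicate 2 library from the mean of replicates 1 and 3 of its group, in log2 CPM, for shCtr (left) and shOSGEP (right); orange bars are measured values and grey bars the trend on GC content and transcript length over all genes tested, with genes ordered by GC content. In shCtr replicate 2 the measured and trend bars have the same sign for all genes but Parp12, and in shOSGEP replicate 2 all genes but Zc3hav1 are measured above theirs.

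The pathway that controls the 6 genes was examined in other lists. All 13 interferon ligand genes listed, Ifnb1 and the interferon alpha genes among them, had 0 counts in every library. A count of 0 allows up to 3 counts, or 0.116 to 0.147 CPM depending on the library, and this limit covers counting error only. Of 12 genes of the interferon receptor, JAK, STAT and IRF group, 10 had a Log2FC above 0 and 2 below, with a median of 0.26, and 0 passed the threshold of the study. With a replicate block 2 passed it, both higher, against 294 of 12669 genes tested. Without replicate 2 in both groups, 7 were above 0 and 5 below, with a median of 0.05. In that fit 1 was higher past the threshold, as were 162 of 12857 genes tested. Stat2 overlapped between groups, with a Log2FC of 0.66 (SE 0.470). Irf9 was measured in shCtr at 7.14, 17.6 and 3.87 CPM, and in shOSGEP at 13.5, 58.2 and 11.1 CPM, in order of replicate number. It was higher in each same-numbered comparison, yet overlapped between groups, with a Log2FC of 1.54 (SE 0.816). Irf7, a factor that amplifies interferon transcription, had a Log2FC of 1.94 (SE 1.34) on 3 to 187 counts per library.

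Other interferon-induced genes had a higher median Log2FC than the 6, a difference between lists that was not tested. Of 20 listed genes, 19 had a Log2FC above 0 and 1 below, with a median of 1.41. The threshold of the study was passed by 7, all higher, where 1.59% of all genes were higher past it. With a replicate block 12 passed, all higher, against 294 of 12669 genes tested. The groups did not overlap for 7, all higher (3.49% of all genes), and 15 were higher in each same-numbered comparison (17.6% of all genes). Ddx58, which encodes the RNA sensor RIG-I, had a Log2FC of 1.72 (SE 0.554), Dhx58, which encodes the RIG-I-like protein LGP2, 2.57 (SE 0.828), and Ifit1, which encodes an RNA-binding antiviral protein, 1.88 (SE 0.634). These 3 passed the threshold of the study, with unadjusted p of 0.0139, 0.0140 and 0.0175, and all had an adjusted p of 1.00. Without replicate 2 the median was 0.77, with 17 genes above 0 and 6 past the threshold, all higher, as were 162 of 12857 genes tested. The 6 PARP, Dtx3l and Zc3hav1 genes had a median of 0.21 and 0 past the threshold in that fit. The number of interferon-induced genes past the threshold depended on single libraries: it was 1 without shOSGEP replicate 2 alone (median 0.63, 16 above 0 and 4 below), 3 without shCtr replicate 3 and 12 without shOSGEP replicate 3. Among all genes tested, 54 of 12972, 108 of 13199 and 274 of 13105 were higher past it in these fits, in this order.

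PARP genes outside the interferon group had Log2FC of both signs. Of 11 tested, 8 had a Log2FC above 0 and 3 below, with a median of 0.22, and 0 passed the threshold of the study. In other fits some did, among them 1 lower with DESeq2 and 1 higher with upper-quartile scaling. With GC and length offsets 1 was higher and 1 lower, and with a replicate block added 2 were lower. With quality-weighted limma-voom plus a replicate block 1 was lower, and 3 were called at an adjusted p under 0.05. Without replicate 2 the split was 5 above and 6 below, with a median of -0.05. Parp3, which encodes a DNA-break responsive transferase, was measured in shCtr at 61.3, 58.6 and 59.8 CPM, and in shOSGEP at 81.7, 219 and 79.6 CPM, in order of replicate number. Its groups did not overlap, with a Log2FC of 1.08 (SE 0.498, adjusted p = 1.00). Parp16, which encodes a transferase of the endoplasmic reticulum membrane, was measured in shCtr at 19.9, 44.4 and 24.5 CPM, and in shOSGEP at 12.8, 10.9 and 18.8 CPM. It was lower in every shOSGEP library, with a Log2FC of -1.06 (SE 0.486, adjusted p = 1.00). Parp1, the main enzyme of poly-ADP-ribose chains, had a Log2FC of -0.71 (SE 0.456).

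**Figure D5:**
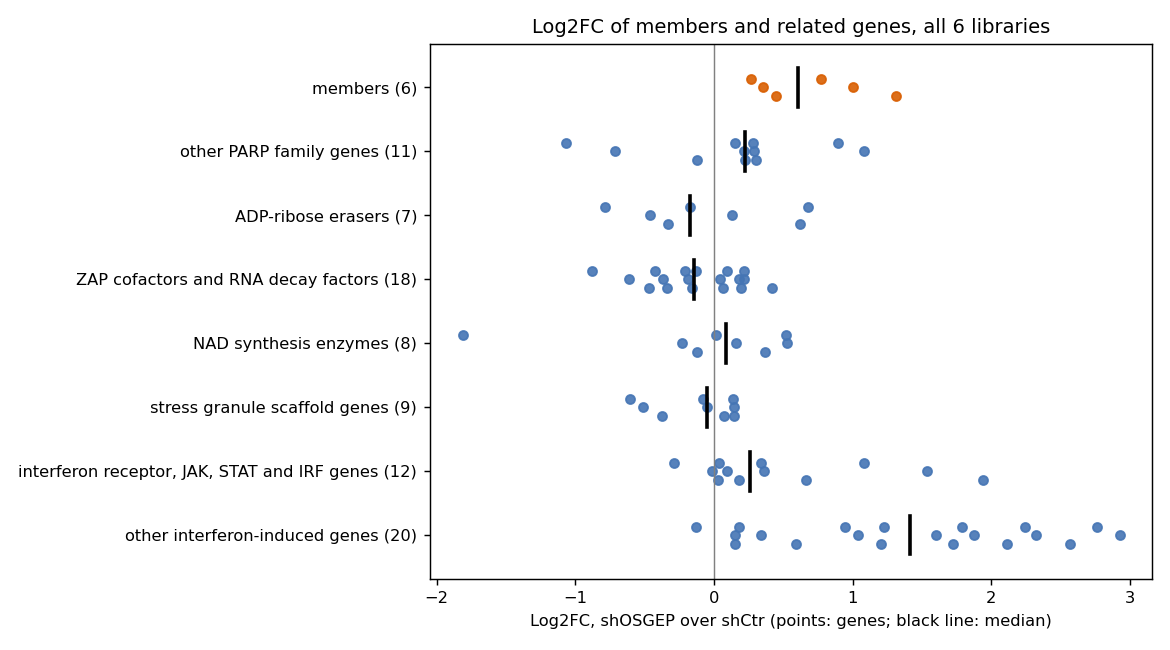
Log2FC of shOSGEP over shCtr, 1 point per tested gene, for the 6 genes (labelled members) and 7 lists of related genes, with the number of genes tested in brackets and a black line at the median. The 6 genes lie between 0.27 and 1.31, with a median of 0.61, between the medians of the other PARP genes (0.22) and of the other interferon-induced genes (1.41).

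In the main fit, genes that work with the 6 proteins did not pass the test. Of 7 genes for enzymes that remove ADP-ribose, 3 had a Log2FC above 0 and 4 below, with a median of -0.17 (-0.04 without replicate 2, with the same split). The smallest p belonged to Adprhl2 (Log2FC -0.79, SE 0.617), Nudt16 (0.62, SE 0.502) and Macrod2 (0.68, SE 0.674), whose groups all overlapped. Of 18 tested genes for ZAP cofactors and RNA decay factors, 8 were above 0 and 10 below, with a median of -0.14, and 0 passed the threshold of the study. Without replicate 2 the split was 5 above and 13 below, with a median of -0.09. With GC and length offsets it was also 5 above and 13 below, with a median of -0.16. In that fit 1 was lower past the threshold, as were 200 of 12669 genes tested. The smallest p belonged to subunits of the RNA exosome, Exosc2 (Log2FC -0.88, SE 0.549), Exosc10 (-0.61, SE 0.464) and Exosc8 (-0.42, SE 0.400). Exosc8 was the most even of these, with log2 ratios of -0.36, -0.50 and -0.42 within replicate numbers. Of the genes on this list for cofactors of ZAP, singled out after their values were seen, Khnyn had a Log2FC of 0.42, N4bp1 of 0.20, Ddx17 of -0.13 and Dhx30 of -0.47, and Trim25 had at most 6 counts in any library and was not tested.

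The genes whose profile over the 6 libraries was most like that of the 6 genes were ranked by Pearson correlation with the mean of their z-scored log2 CPM, among 10972 tested genes with at least 50 counts on average. They were Ankrd50 (r = 0.995), Zfand2a (r = 0.995), Fn1 (r = 0.994), Ccn1 (r = 0.992) and Acad11 (r = 0.988). The mean z-score of the 6 genes was -1.23 in shCtr replicate 2 and 1.06 in shOSGEP replicate 2, and between -0.33 and 0.23 in the other 4 libraries. These correlations describe 6 libraries that share depth and composition differences, and the replicate 2 libraries set both ends of the range.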

How the data were processed

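PolyA RNA of 6 B16F10 libraries was sequenced in paired reads. According to the methods and processing notes, reads were trimmed with TrimGalore, aligned to GRCm38 with STAR 2.6.1d and quantified with Salmon 1.4.0; the annotation release was not given in the sources used here. The values deposited by the authors are estimated counts per gene, written as whole numbers without normalization, and Salmon splits reads shared between genes by likelihood. These counts were filtered with filterByExpr (minimum count 10, minimum total 15), scaled by TMM and compared in R 4.3.3 with edgeR 4.0.16 (quasi-likelihood F-test, two-sided, no block), with Benjamini-Hochberg adjustment over 12669 genes. SE is Log2FC divided by the square root of F. Log2 CPM used a prior count of 2.

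Same-numbered libraries deviated together from their group means (correlations 0.811, 0.557 and 0.196), all above the limit of 0.1. The shared numbers in the labels were therefore used for same-numbered comparisons and for a replicate block among the alternatives. The main fit and the permutation tests were unpaired. The highest correlation between different numbers was 0.491, above the 0.196 of replicate 3, so the pairing is uncertain. Alternatives were DESeq2 1.42.0, limma-voom (limma 3.58.1) with sample quality weights, other scalings and filters, a replicate block, offsets for GC content and length (splines with 5 and 3 degrees of freedom) and leaving out libraries. The 6 genes, the lists and the tests were chosen with earlier results of these data known. Named genes were the 6, Osgep, Stat2 and Irf9, up to 3 genes of smallest p per list, PARP genes without overlap between groups, any interferon ligand with a count, and the 5 genes of most similar profile; 1 further gene that the rule names is not reported here. Gene positions, lengths and GC contents came from GENCODE M21, and promoter letters from RefSeq; Parp9, Parp10 and Parp14 had no window there.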

Additional observations from a re-analysis of the deposited data

How the results depend on the processing

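Log2FC kept its sign in all 19 alternatives for Parp9, Parp14 and Dtx3l, in 18 for Parp10 and Parp12 and in 17 for Zc3hav1. Parp12 was -0.0082 without replicate 2 in both groups and Zc3hav1 -0.036 with limma-voom and sample quality weights. Leaving out 1 library at a time, Log2FC ranged from -0.11 (without shOSGEP replicate 2) to 0.84 for Parp10 and from -0.024 (without shCtr replicate 2) to 0.59 for Zc3hav1. The number of the 6 genes past the study threshold was 1, Parp14, with DESeq2, both limma-voom fits, upper-quartile scaling, no filter and both fits with GC and length offsets. All of these also passed more genes than the 256 of the main fit. Of 12669 genes tested, 370 passed with DESeq2, 287 with upper-quartile scaling, 560 and 1442 with limma-voom, and 622 and 812 with the offsets. Without a filter 599 of 21821 passed. Parp14 was also called at an adjusted p of 0.00111 (Log2FC 0.75) with quality-weighted limma-voom plus a replicate block. The replicate block alone gave edgeR Log2FC of 1.43 for Parp14 (unadjusted p = 0.0644) and 0.36 for Parp10, and it changed no call among the 6 genes.

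Over all genes, the 256 past the study threshold became 560 with limma-voom and sample quality weights, 1442 with a replicate block added, 599 without a filter, 622 with GC and length offsets, 812 with offsets and a replicate block, and 163 without replicate 3 in both groups. Leaving out 1 library gave 67 (without shOSGEP replicate 2) to 453 (without shCtr replicate 1), with 167 without shCtr replicate 3 and 390 without shOSGEP replicate 3. At an adjusted p under 0.05, 14 genes were called by DESeq2, 3 by quality-weighted limma-voom and 1403 with a replicate block added to it. The causes were not tested. Of 220 alternative values, 195 were classed as unchanged from the main fit, 20 as moved beyond a margin, 4 as reversed in sign and 1 as newly called. For the Log2FC of each of the 6 genes this meant the same sign and the same call at an adjusted p under 0.05. Counts of genes and the median Log2FC were allowed a margin. For the median it was the SD of the median log2 ratios of replicates 1 to 3. The replicate 2 pair made that SD wide, and no alternative fell outside it, so this class says little about stability. Thus 373 genes with a replicate block against 256, and a median of 0.21 without replicate 2 against 0.61, were classed as unchanged. For the Parp9 to Dtx3l ratio only the sign was compared, and its replicate block entry was the main value itself. The 6 genes had 46 to 3638 counts per library, and the biological coefficient of variation was 0.566.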

Other observations

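The ratio of Parp14 to its chromosome 16 neighbour Dtx3l was chosen after its values were seen and is given as a description, without a test. In log2 CPM it was 0.30, 0.06 and -0.08 in shCtr and 0.61, 0.71 and 0.52 in shOSGEP, in order of replicate number, and the groups did not overlap. The group means differed by 0.52. For the ratio of Parp14 to Parp9 they differed by 0.31.

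Genes for the supply of NAD, the substrate of PARPs, and for the scaffold of stress granules, where PARP12 and ZAP can be found, were compared in the same way. Of 8 tested NAD synthesis genes, 5 had a Log2FC above 0 and 3 below (median 0.09), and 0 passed the study threshold. Without replicate 2 in both groups, 3 were above 0 and 5 below (median -0.10). Nmrk2 had a Log2FC of -1.81 (SE 0.983) on 1 to 42 counts per library, Nmnat1 of 0.52 (SE 0.462) and Nmnat2 of 0.52 (SE 0.476), and the groups overlapped for the first 2 and not for Nmnat2. Of 9 stress granule genes, 4 were above 0 and 5 below (median -0.05). This split depended on the fit: 2 were above 0 and 7 below without replicate 2 in both groups (median -0.08), 0 and 9 without shCtr replicate 2 alone (median -0.22), 0 and 9 with GC and length offsets (median -0.55), and 6 and 3 with a replicate block (median 0.10). In none of these fits did a gene of the list pass the study threshold. The smallest p belonged to Ubap2l (Log2FC -0.61, SE 0.495), Usp10 (-0.51, SE 0.447) and G3bp1 (-0.38, SE 0.401), whose groups overlapped.

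Melanocyte markers had a Log2FC below 0 for 7 of 7 genes (median -0.87), with median log2 ratios of -0.07, -2.55 and -0.12 within replicate numbers 1 to 3. Without replicate 2 in both groups, 2 were above 0 and 5 below (median -0.13). Those of smallest p were Sox10 (-0.95, SE 0.612), Mlana (-0.72, SE 0.495) and Pmel (-1.26, SE 0.896). Dct, singled out after its values were seen, was lower in every shOSGEP library (2.87% of all genes), with log2 ratios of -0.25, -3.30 and -0.38. In the main fit 0 markers passed the study threshold. With GC and length offsets 2 were lower past it (200 of 12669 genes tested), and without shOSGEP replicate 3 alone 1 was (116 of 13105).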
